A study of Mus musculus with 9 samples.

Results

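The 10 genes described here encode enzymes that make, break down or convert ceramide, the lipid at the center of sphingolipid metabolism. They were taken by symbol from the deposited table, where all 10 matched, out of 22831 genes: Sptlc1, Sptlc2, Cers2, Cers5, Cers6, Degs1, Smpd1, Asah1, Ugcg and Sphk2. The study measured mRNA in C2C12 cells, an established mouse myoblast line that was switched to low horse serum so that it fused into myotubes. Each of 3 groups held 3 stranded mRNA libraries. The control group had no listed treatment, the second group received 200 µM palmitic acid, and the third received 200 µM palmitic acid together with 1000 µM carnitine. All groups share the same wild-type cell line, and nothing in the labels says that replicates were separate cultures, so p-values measure the spread between these libraries, which may be technical. The duration is given with an unreadable unit and is left out here.

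Palmitic acid, activated to palmitoyl-CoA, is a building block of sphingolipids: serine palmitoyltransferase joins it to serine, ceramide synthases add another fatty acid, and dihydroceramide desaturase makes ceramide. Ceramide also comes from sphingomyelin in lysosomes, and leaves by conversion to glucosylceramide or by hydrolysis to sphingosine, which sphingosine kinases phosphorylate. In skeletal muscle, ceramide built up from saturated fat is known for dampening insulin signalling. Carnitine carries long-chain acyl groups into mitochondria for oxidation, the competing route for the same palmitoyl-CoA.

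Total counts per library were low, at 2.31 to 3.31 M in the control group and 3.33 to 5.14 M with palmitic acid. With palmitic acid and carnitine they were 2.45 to 3.09 M. These totals are counts assigned to genes, not reads sequenced. All 9 myotube markers examined had counts, and their summed level was 8040 to 13118 CPM (counts per M counts of the library) in control, 14536 to 21562 CPM with palmitic acid and 8938 to 10787 CPM with both agents. The 4 markers of undifferentiated reserve cells summed to 81.1 to 94.6, 111 to 198 and 88.5 to 111 CPM in the same order. Both sums were thus highest with palmitic acid. They use raw library totals and no TMM factor, unlike the CPM of the enzymes below, and whether they reflect the make-up of the cells was not tested. Of the osteoblast markers, Sp7 alone matched a row, with 2 counts. Many genes shared their DNA with an annotated gene on the other strand. For each library, counts on coding genes free of such a partner were divided by counts on noncoding genes that lie opposite a coding gene. The quotient is therefore not a comparison of both strands at shared loci, and it moved with the groups. This sense-to-opposite ratio was 0.685, 0.633 and 1.18 in control replicates 1 to 3, 3.48, 1.21 and 1.22 with palmitic acid, and 0.831, 0.653 and 0.701 with palmitic acid and carnitine. All palmitic acid libraries thus lay above all others, and the ratio is made from the same counts as the gene values. In fits that hold this ratio, treatment and ratio therefore cannot be told apart. Palmitic acid replicate 1 and control replicate 3 stood apart within their groups. The values of Sptlc2, Degs1, Smpd1, Asah1, Ugcg and Sphk2 are also given without at least 1 of them.

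None of the 10 genes passed an adjusted p of 0.05 by edgeR's quasi-likelihood test in any contrast, and neither did any other gene (0% of 12548 tested). At an unadjusted p under 0.05, Degs1 and Smpd1, and with them Ugcg, were higher with palmitic acid than in control (3 of 10 genes, against 5.67% of all genes), and Sphk2 was lower (1 of 10, against 13.9%). With carnitine added to palmitic acid, 3 of 10 genes were lower than with palmitic acid alone at that level, namely Smpd1, Degs1 and Asah1 (8.34% of all genes), and Sphk2 was higher (15.9%). Between palmitic acid with carnitine and control, 0 of 10 genes reached an unadjusted p under 0.05 in edgeR (0.877% of all genes higher and 1.88% lower). The differences lay above 0 for 6 of 10 genes with palmitic acid against control (53.2% of all genes), for 2 of 10 with carnitine added (44.4%) and for 5 of 10 between the combined group and control (47.8%). DESeq2 and limma on log2 FPKM also called 0 of the 10 genes, but DESeq2 gave 7 of them no adjusted p for the addition of carnitine. No enzyme had a combined group that lay wholly above or below control (0 of 10, against 3.69% and 4.84% of all genes). The palmitic acid libraries enter both of the first contrasts, so values of opposite sign in them are partly built in. In bulk RNA, fewer cells of a type and less RNA per cell cannot be told apart.

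The levels differed widely between the enzymes. In FPKM (fragments per kb of exon per M counts, which allows genes of unequal length to be set side by side), Sphk2 had the highest mean over the 9 libraries, 33.8 with a range of 21.5 to 42.9. Cers2 came next at 16.8 (14.8 to 19.4), and its highest library lay below the lowest of Sphk2. Ugcg averaged 11.8 (7.04 to 22.9), Degs1 8.48 (1.98 to 26.5), Asah1 6.18 (2.65 to 12.4), Smpd1 5.37 (2.21 to 12.9) and Cers5 4.70 (2.2 to 9.35). The lowest levels were those of Sptlc2 at 2.03 (1.29 to 4.87), Cers6 at 1.86 (0.703 to 3.93) and Sptlc1 at 1.59 (0.574 to 2.58). Sphk2, Cers2 and Cers5 have an opposite-strand gene, and the other 7 enzymes have none. Reads of that gene may be counted in their levels. How these 3 rank against the other 7 is therefore not settled. Within each group separately, Cers2 lay wholly above Ugcg in control and in the combined group, and was the higher of the pair in 8 of 9 libraries. Cers5 lay above Sptlc2 in 9 of 9 libraries, and Ugcg above Degs1 in 8 of 9. The other neighbours in this order (Degs1 and Asah1, Asah1 and Smpd1, Smpd1 and Cers5, Sptlc2 and Cers6, Cers6 and Sptlc1) overlapped in all 3 groups, with the first of the pair higher in 5 or 6 of 9 libraries.

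**Figure D1:**
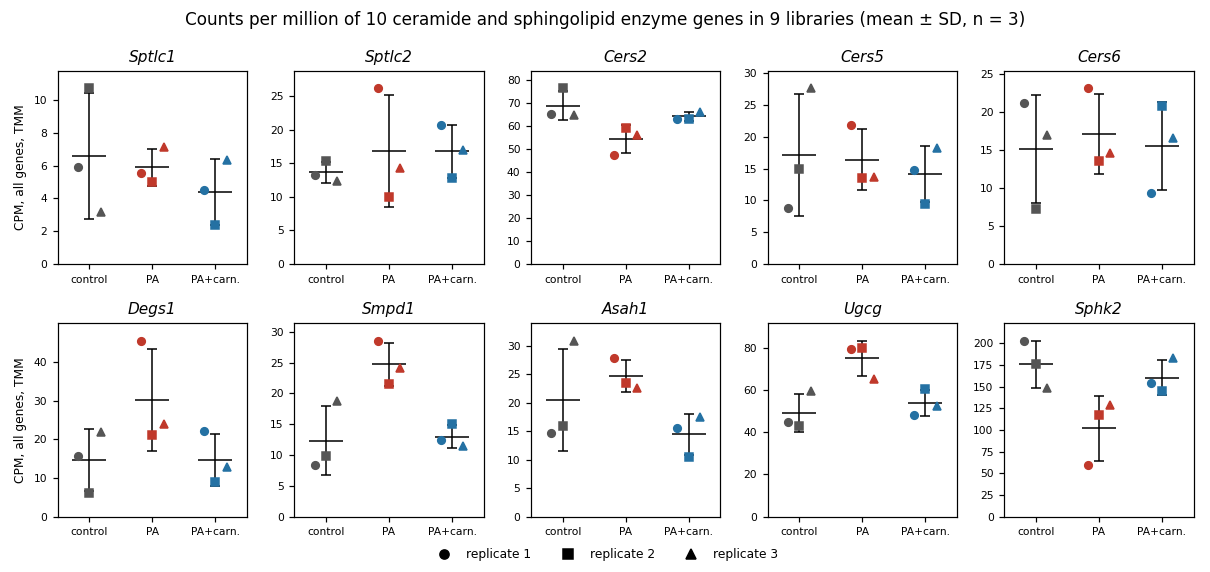
TMM-scaled CPM of each of the 10 genes in every library (points, with a shape per replicate number) for control, palmitic acid (PA), and palmitic acid with carnitine (PA+carn.), where horizontal lines are group means and error bars SD (n = 3). Smpd1 and Ugcg have all 3 palmitic acid points above all 3 control points, Sphk2 and Cers2 have them below, and Degs1 has groups that overlap.

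Sptlc1 and Sptlc2 encode the paired catalytic subunits of serine palmitoyltransferase, the enzyme that uses palmitoyl-CoA directly, and neither differed between groups beyond the libraries' spread. Sptlc1 (ENSMUSG00000021468, chromosome 13, 53486784 to 53531433, minus strand, GRCm39 as deposited) had the thinnest coverage, 167 counts over all 9 libraries. Its TMM-scaled CPM was 6.59 ± 3.82 in control, 5.90 ± 1.13 with palmitic acid and 4.41 ± 2.00 with carnitine added (SD, n = 3 each). Its log2 fold change was -0.14 ± 0.56 (SE) for palmitic acid against control and -0.41 ± 0.58 for palmitic acid with carnitine against palmitic acid. Given SEs of this size, even a log2 difference of 1 was not reliably detectable for Sptlc1. Sptlc2 (ENSMUSG00000021036, chromosome 12, 87351832 to 87435129, minus strand) had 522 counts, with 13.3, 15.4 and 12.4 CPM in control, 26.2, 9.97 and 14.3 under palmitic acid, and 20.7, 12.8 and 17.0 with both agents. Only palmitic acid replicate 1 stood above the control and combined groups, and all groups overlapped. The log2 fold change of Sptlc2 was 0.32 ± 0.37 against control, and it lay between -0.17 and 0.58 over fits that left out a library, with -0.17 without palmitic acid replicate 1.

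The ceramide synthases attach the fatty acid that gives a ceramide its chain length. CERS5 and CERS6 prefer palmitoyl-CoA, while CERS2 prefers very-long-chain acyl-CoAs. Cers2 (ENSMUSG00000015714, chromosome 3, 95222102 to 95230910, plus strand, 1784 counts) had 65.3, 76.3 and 64.8 CPM in control, 47.4, 59.3 and 55.9 under palmitic acid, and 63.2, 62.8 and 66.2 with carnitine added. Its palmitic acid libraries lay below all control and all combined libraries. The log2 fold change was -0.35 ± 0.22 against control (edgeR unadjusted p = 0.138, adjusted p = 0.377) and 0.24 ± 0.22 for the addition of carnitine (adjusted p = 0.499). With palmitic acid, 2 of 10 enzymes lay wholly below control (Cers2 and Sphk2, against 10.9% of all genes) and 2 wholly above (Smpd1 and Ugcg, against 11.7%). With carnitine added, 2 lay wholly above palmitic acid (Cers2 and Sphk2, against 20%) and 3 wholly below (Smpd1, Ugcg and Asah1, against 18.3%). On the FPKM scale the sign for Cers2 turned in both contrasts, to 0.01 and -0.14 at a pseudocount of 1. That scaling also moved the median of all genes to 0.29 for palmitic acid against control and to -0.34 for the addition of carnitine. Exons of Cers2 overlap 75 bases of Setdb1 (568 counts) and 144 bases of 6330562C20Rik (90 counts) on the other strand.

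Cers5 (ENSMUSG00000023021, chromosome 15, 99632762 to 99670766, minus strand, 522 counts) ranged from 8.84 to 27.7 CPM within the control group alone. A noncoding gene, Gm17058, spans 835 bases of Cers5 exon on the other strand but has 0 exon bases in common with it and 35 counts. The means of Cers5 were 17.2 ± 9.59, 16.4 ± 4.78 and 14.2 ± 4.44 CPM, with log2 fold changes of -0.08 ± 0.41 and -0.22 ± 0.41 in the order of the contrasts above. Cers6 (ENSMUSG00000027035, chromosome 2, 68691785 to 68944626, plus strand, 508 counts) had means of 15.1 ± 7.10, 17.1 ± 5.23 and 15.6 ± 5.80 CPM. The fold changes of Cers6 were 0.19 ± 0.41 and -0.16 ± 0.41 on the log2 scale, and all 3 of its groups overlapped. The summed FPKM of Cers5 and Cers6 relative to Cers2 compares the mRNA of these palmitoyl-preferring synthases with that of a very-long-chain synthase. Cers1, also tested (mean FPKM 3.13), is not part of it. Cers2 and Cers5 have an opposite-strand gene and Cers6 has none, so the ratio mixes genes with and without such a partner. This ratio was 0.274, 0.244 and 0.551 in control, 0.683, 0.332 and 0.364 with palmitic acid, and 0.305, 0.293 and 0.390 with both agents. Control replicate 3 and palmitic acid replicate 1 held the highest values of this ratio in their groups, and they were also the libraries with the highest sense-to-opposite ratio there. The part of that ratio in the result was not tested.

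Degs1 (ENSMUSG00000038633, chromosome 1, 182103337 to 182110369, minus strand, 747 counts) encodes dihydroceramide desaturase, the last step of ceramide synthesis. It had 15.7, 6.00 and 21.9 CPM in control, 45.4, 21.04 and 24.1 under palmitic acid, and 22.1, 8.97 and 12.7 with carnitine added. Palmitic acid replicate 1 was far above every other library, replicate 3 was just above them, and replicate 2 lay below the highest control and combined libraries, so that the groups overlapped. Degs1 differed by a log2 fold change of 1.04 ± 0.46 against control (edgeR unadjusted p = 0.0392, adjusted p = 0.236) and -1.04 ± 0.46 for the addition of carnitine (unadjusted p = 0.0401, adjusted p = 0.190). Without palmitic acid replicate 1 these values were 0.61 (adjusted p = 0.590) and -0.61 (adjusted p = 0.515), and without control replicate 3 the difference against control was 1.505 (adjusted p = 0.0886). With no filter on low counts, edgeR called Degs1 for carnitine at -1.09 (adjusted p = 0.0455), as it did 5.98% of 22831 genes. With the log2 sense-to-opposite ratio of each library in the fit, the difference against control was 0.07 ± 0.42 and that for carnitine 0.12 ± 0.46. That ratio was highest in the palmitic acid libraries, so such a fit cannot separate treatment from it.

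Smpd1 (ENSMUSG00000037049, chromosome 7, 105203567 to 105207596, plus strand, 583 counts) encodes acid sphingomyelinase, which releases ceramide from sphingomyelin in lysosomes. Its palmitic acid CPM did not overlap that of either other group, though edgeR called neither difference in the fit of all 9 libraries. The 3 control libraries had 8.35, 9.86 and 18.7 CPM, the 3 palmitic acid libraries 28.5, 21.6 and 24.1, and the 3 libraries with carnitine added 12.4, 15.1 and 11.5. Each palmitic acid library was above each library of the other groups, which overlapped each other. Of all genes, 11.7% lay wholly above control with palmitic acid, and 18.3% wholly below palmitic acid with carnitine added. Both separations rest on the same palmitic acid libraries, and the share of genes with both was not counted. The log2 fold change was 0.98 ± 0.34 against control (edgeR unadjusted p = 0.0116, adjusted p = 0.172), -0.93 ± 0.34 for the addition of carnitine (unadjusted p = 0.0155, adjusted p = 0.146) and 0.05 ± 0.35 between the combined group and control. Leaving out control replicate 3 gave 1.44 against control with an adjusted p of 0.0325, where edgeR called 768 genes in all (5.99%). The same exclusion within genes that have no opposite-strand gene gave 1.03 with an adjusted p of 0.127 and called 192 genes (3.22%), 0 of them among the enzymes. Without palmitic acid replicate 1, Smpd1 had 0.86 against control (adjusted p = 0.345). With the sense-to-opposite ratio in the fit, the values were 0.57 ± 0.41 and -0.43 ± 0.45.

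The promoter of Smpd1 is shown because all palmitic acid libraries of this gene lay above all others, and that of Cers6 is shown beside it as a gene whose groups overlapped throughout. Both are the 250 bases before the annotated start in RefSeq (GRCm38.p6), Smpd1 at chr7:105554110-105554359 and Cers6 at chr2:68861191-68861440, each on the plus strand. Capitals mark GC boxes (GGGCGG, or CCGCCC on the other strand), CCAAT boxes (CCAAT, or ATTGG on the other strand) and the E-box CACGTG, which reads the same on both strands.
Smpd1: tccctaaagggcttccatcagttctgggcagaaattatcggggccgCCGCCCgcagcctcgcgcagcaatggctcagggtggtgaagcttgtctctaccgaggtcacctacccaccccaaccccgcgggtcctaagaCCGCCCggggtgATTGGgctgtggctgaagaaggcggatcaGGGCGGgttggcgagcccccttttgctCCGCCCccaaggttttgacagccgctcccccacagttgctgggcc
Cers6: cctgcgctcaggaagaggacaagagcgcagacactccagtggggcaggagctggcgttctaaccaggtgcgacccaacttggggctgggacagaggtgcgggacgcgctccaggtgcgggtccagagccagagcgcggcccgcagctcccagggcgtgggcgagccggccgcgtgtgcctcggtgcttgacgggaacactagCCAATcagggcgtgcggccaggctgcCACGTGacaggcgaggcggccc
The Smpd1 window held 4 GC boxes and 1 CCAAT box, and the Cers6 window held 1 E-box, 22 bases before the start, and 1 CCAAT box. Of the 10 genes, 9 had a RefSeq promoter entry, with 11 windows in all since Cers2 and Sphk2 have 2 each. An E-box was found in 3 of these 11 windows (Degs1, Cers6 and 1 of the Cers2 windows), a GC box in 8 and a CCAAT box in 6, while 6.02%, 32.7% and 33.8% of all 32851 windows of that length held them. In both printed windows no motif overlapped another, and a match describes the sequence alone.

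Asah1 (ENSMUSG00000031591, chromosome 8, 41793234 to 41827810, minus strand, 662 counts) encodes acid ceramidase, the lysosomal enzyme that splits ceramide into sphingosine and a fatty acid. It had 14.7, 15.9 and 30.8 CPM in control, 27.9, 23.5 and 22.6 under palmitic acid, and 15.5, 10.4 and 17.4 with carnitine added. Control and palmitic acid groups overlapped through control replicate 3, whereas the combined libraries all lay below the palmitic acid libraries. Asah1 differed by a log2 fold change of 0.25 ± 0.33 against control and -0.77 ± 0.34 for the addition of carnitine (edgeR unadjusted p = 0.039, adjusted p = 0.188). The ratio of Asah1 to Smpd1 in FPKM compares the mRNA levels of these enzymes inside a library, not their activity. It was 1.74, 1.58 and 1.62 in control and 0.962, 1.07 and 0.926 with palmitic acid. With carnitine added the ratio was 1.23, 0.677 and 1.49. Control and palmitic acid values did not overlap. The combined group spanned the palmitic acid values and also lay below all control values. This pair was chosen after its values were seen and was not tested.

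Ugcg (ENSMUSG00000028381, chromosome 4, 59189257 to 59222833, plus strand, 1920 counts) encodes glucosylceramide synthase, which turns ceramide into the first glycosphingolipid. It had 44.7, 42.9 and 59.6 CPM in control, 79.2, 80.0 and 65.3 under palmitic acid, and 48.3, 60.4 and 52.2 with carnitine added. All palmitic acid libraries lay above all others, by a small margin over control replicate 3 and over the combined replicate 2. The shares of all genes are those given for Smpd1 (11.7% and 18.3%). Ugcg differed by a log2 fold change of 0.61 ± 0.24 against control (edgeR unadjusted p = 0.0232, adjusted p = 0.199) and -0.48 ± 0.24 for the addition of carnitine (unadjusted p = 0.0613, adjusted p = 0.224). With the sense-to-opposite ratio in the fit these were 0.44 ± 0.25 and -0.29 ± 0.28.

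Sphk2 (ENSMUSG00000057342, chromosome 7, 45358891 to 45367426, minus strand, 3856 counts) encodes a sphingosine kinase found in the nucleus and at mitochondria. It had 202, 177 and 149 CPM in control, 59.2, 117 and 129 under palmitic acid, and 154, 145 and 183 with carnitine added. Palmitic acid libraries lay below all others, and replicate 1 was by far the lowest. The log2 fold change of Sphk2 was -0.79 ± 0.30 against control (edgeR unadjusted p = 0.0197, adjusted p = 0.190) and 0.66 ± 0.30 for the addition of carnitine (unadjusted p = 0.0448, adjusted p = 0.197). Without palmitic acid replicate 1 the values were -0.51 (adjusted p = 0.327) and 0.38 (adjusted p = 0.390). With the sense-to-opposite ratio in the fit the differences were -0.19 ± 0.21 and -0.02 ± 0.22. Exons of Sphk2 overlap 373 bases of Rpl18, a ribosomal protein gene with 6879 counts, and 539 bases of Dbp, a circadian transcription factor gene with 925 counts, both on the other strand. Rpl18 had log2 fold changes of -0.05 ± 0.23 and 0.02 ± 0.23, and Dbp -0.58 ± 0.26 and 0.59 ± 0.26. The strand setting of the counting is not given in the sources used here, so which strand's reads the Sphk2 counts hold was not settled, and its high level carries the same doubt.

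The median difference of the enzymes without a gene on the other strand was set beside that of their class. Over all 12548 genes the median log2 fold change was 0.06 for palmitic acid against control and -0.10 for the addition of carnitine, while protein-coding genes free of an opposite-strand partner had 0.27 and -0.34, and noncoding genes lying opposite had -0.80 and 0.90. The 7 enzymes free of such a partner (Sptlc1, Sptlc2, Cers6, Degs1, Smpd1, Asah1 and Ugcg) had medians of 0.32 and -0.48. When counts were scaled and tested within the 5920 partner-free genes, 65 genes were called for palmitic acid against control (1.1%) and 66 for the addition of carnitine (1.11%), none of them among the 7 enzymes. Smpd1 then had 39.1, 47.3 and 71.1 CPM in control, 94.6, 81.5 and 90.2 under palmitic acid, and 53.1, 72.1 and 53.0 with carnitine added. The palmitic acid libraries of Smpd1 were still above all others on this scale, with a log2 fold change of 0.72 ± 0.31 (edgeR unadjusted p = 0.0289, adjusted p = 0.372) and -0.59 ± 0.31 for carnitine (unadjusted p = 0.0701, adjusted p = 0.485). Degs1 had 0.78 ± 0.36 and -0.70 ± 0.36 within this class. Ugcg, at 214 ± 11.1, 270 ± 29.2 and 245 ± 41.1 CPM, had 0.33 ± 0.19 and -0.14 ± 0.19, and the combined libraries reached the palmitic acid range. The means of Asah1 were level between control and palmitic acid, 87.4 ± 25.9 and 88.7 ± 3.84 CPM, and 65.4 ± 15.5 CPM with carnitine added. The control mean of Asah1 rests on replicate 3: the control libraries had 69.1, 76.0 and 117 CPM. Those with palmitic acid had 92.5, 88.8 and 84.8 CPM. Within the class, 2 of 7 enzymes reached an unadjusted p under 0.05 with palmitic acid, Degs1 and Smpd1, both higher (4.02% of the class were higher and 7.09% lower), and 0 of 7 did so for carnitine (7.52% higher and 4.27% lower). Smpd1 and Ugcg had palmitic acid libraries wholly above control (2 of 7, against 7.72%), and 0 of 7 had them wholly below (7.67%). With carnitine added, Smpd1 and Asah1 lay wholly below palmitic acid (2 of 7, against 9.02%) and 0 of 7 wholly above (9.95%).

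**Figure D2:**
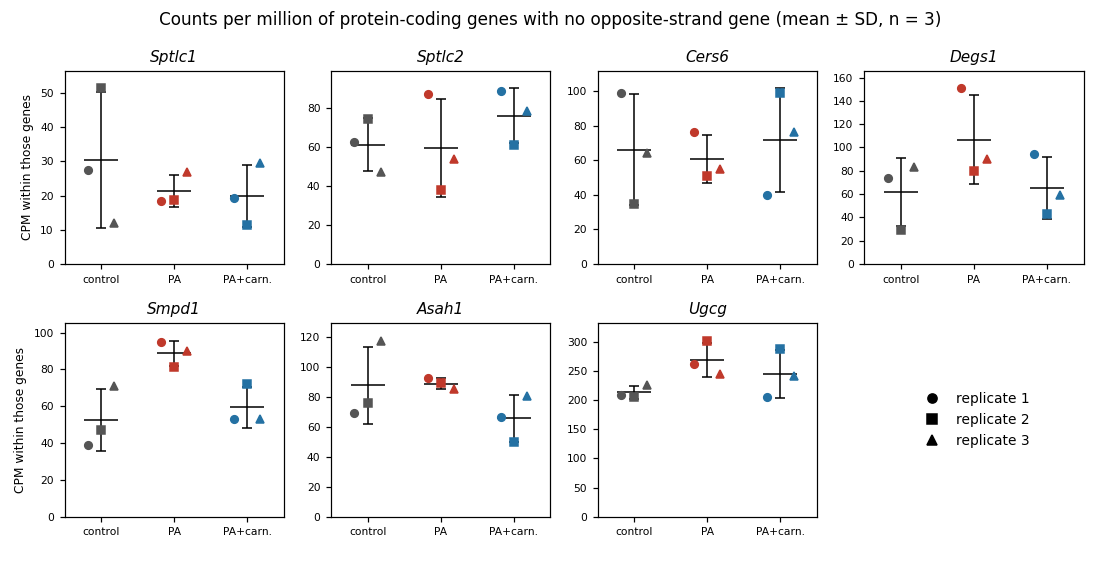
CPM of the 7 enzymes with no opposite-strand gene, scaled within the 5920 genes of that class, for each library (points, with a shape per replicate number), where horizontal lines are group means and error bars SD (n = 3). Smpd1 keeps its palmitic acid points above all others, whereas the Ugcg and Degs1 groups overlap between palmitic acid and the combined treatment.

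**Figure D3:**
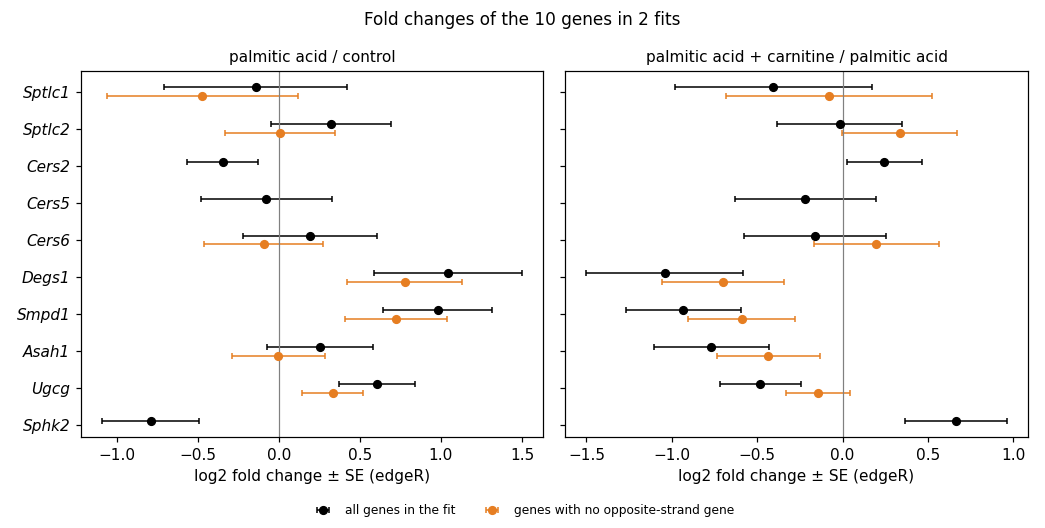
Log2 fold changes with SE (points and bars) for palmitic acid against control and for palmitic acid with carnitine against palmitic acid, from the fit of all genes (black, 10 enzymes) and the fit of genes with no opposite-strand gene (orange, 7 enzymes). Smpd1 lies at 0.98 and 0.72 in the left panel and at -0.93 and -0.59 in the right panel, where the palmitic acid libraries are shared by both panels, and the orange values of Degs1, Smpd1 and Ugcg are closer to 0 than the black ones.

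Without both control replicate 3 and palmitic acid replicate 1, an alternative chosen after the data were seen, edgeR called 2369 genes for palmitic acid against control (19.2%), 3 of the 10 enzymes among them. In that fit Smpd1 rose by a log2 fold change of 1.32 ± 0.41 (adjusted p = 0.0224), Ugcg rose by 0.74 ± 0.23 (adjusted p = 0.0262) and Sphk2 fell by 0.62 ± 0.17 (adjusted p = 0.0114). Degs1 was at 1.07 ± 0.46 (adjusted p = 0.109) and Asah1 at 0.60 ± 0.38 (adjusted p = 0.300). For the addition of carnitine, the same fit called 13.6% of all genes and 0 of the 10 enzymes, with Degs1 at -0.61 (adjusted p = 0.361). Within genes that have no opposite-strand gene, this exclusion called 2.64% for palmitic acid against control and 0 of the 7 enzymes, with Smpd1 at 0.98 (adjusted p = 0.290) and Ugcg at 0.40 (adjusted p = 0.517).

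The wider sphingolipid pathway showed 0 called genes as well in edgeR's fit of all 12548 genes and in that of partner-free genes. The pathway as a whole was not counted under the other edgeR settings. A list of 88 symbols by role, among them the 10 enzymes, had 80 matches in the table and 65 genes tested, of which 0 passed in either direction in either contrast by edgeR or by limma. DESeq2 called 2 of the 65 for palmitic acid against control (Degs2 and Ormdl2, both lower, where it called 3.78% of all genes) and 4 for the addition of carnitine, with Degs2, Ormdl2 and Psph among them as higher and 6.51% of all genes called, giving 37 of the 65 no adjusted p in the latter. Degs2, Ormdl2 and Psph each have an opposite-strand gene. At an unadjusted p under 0.05, 8 of the 65 were higher and 8 lower with palmitic acid (5.67% and 13.9% of all genes), and 10 were higher and 13 lower with carnitine added (15.9% and 8.34%). The median log2 fold change of the 65 genes was 0.17 for palmitic acid against control and -0.38 for the addition of carnitine. The 34 listed genes with no opposite-strand gene had 28 above 0 with palmitic acid and 31 below 0 with carnitine added (medians 0.36 and -0.53). In the same fit, 72.9% of all partner-free coding genes were above 0 with palmitic acid. With carnitine added, 23.3% of them were above 0. Within the scale of their own class, 20 of the 34 listed genes were above 0 with palmitic acid and 26 below 0 with carnitine added. Their medians on that scale were 0.08 and -0.20. The medians of the whole class on that scale were -0.0058 and -0.0011. The 31 listed genes with an opposite-strand gene had medians of -0.29 and 0.10.

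Among the regulators of serine palmitoyltransferase, Sptssa, its small activating subunit, had a log2 fold change of 1.33 ± 0.71 against control and -0.66 ± 0.68 for carnitine. Ormdl3, an inhibitor of that enzyme, had 0.46 ± 0.32 and -0.91 ± 0.32 (adjusted p = 0.142 for carnitine). Ormdl2, another inhibitor, had -1.74 ± 0.52 and 1.75 ± 0.52 (edgeR adjusted p = 0.146 and 0.125), and lies opposite Dnajc14 and Sarnp. Degs2, a desaturase and hydroxylase of sphingoid bases opposite Evl, had 78.4 ± 51.2, 20.9 ± 12.5 and 82.4 ± 28.0 CPM (SD, n = 3), with -1.92 ± 0.58 and 2.00 ± 0.58. Psap, the saposin precursor that aids lysosomal sphingolipid breakdown, had a mean FPKM of 152 and log2 fold changes of 0.56 ± 0.29 and -0.56 ± 0.29. Smpd4, a neutral sphingomyelinase, had -0.52 ± 0.29 and 0.23 ± 0.29, and within the genes that have no opposite-strand gene -0.82 ± 0.26 (edgeR adjusted p = 0.123) and 0.55 ± 0.26 (adjusted p = 0.387). St3gal5, which makes a ganglioside from lactosylceramide, had 0.12 ± 0.24 and -0.49 ± 0.24. Sphk1, the other sphingosine kinase, lies opposite Gm29292 and had -0.29 ± 0.28 and 0.65 ± 0.28. Among genes that supply the substrates, Psph, the last enzyme of serine synthesis, lies opposite Cct6a and had -0.82 ± 0.34 and 1.00 ± 0.34. Phgdh, the first enzyme of that route, had 0.36 ± 0.27 and -0.53 ± 0.28. Slc27a1, a fatty acid transporter of muscle, had 0.42 ± 0.25 and -0.65 ± 0.25. Cptp, which transfers ceramide 1-phosphate between membranes, had 0.20 ± 0.45 and -1.37 ± 0.49 (edgeR adjusted p = 0.142 for carnitine). Within the genes free of an opposite-strand partner, Sptssa had 1.07 and -0.32, Ormdl3 0.18 and -0.57, and Psap 0.29 and -0.22. On that scale St3gal5 had -0.16 and -0.15, Phgdh 0.09 and -0.19, and Slc27a1 0.13 and -0.32. Cptp there had -0.08 and -1.04 (edgeR adjusted p = 0.486 for carnitine). Of the 10 listed genes tested with a mean FPKM above 20, 8 have an opposite-strand gene, and Psap and St3gal5 have none.

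**Figure D4:**
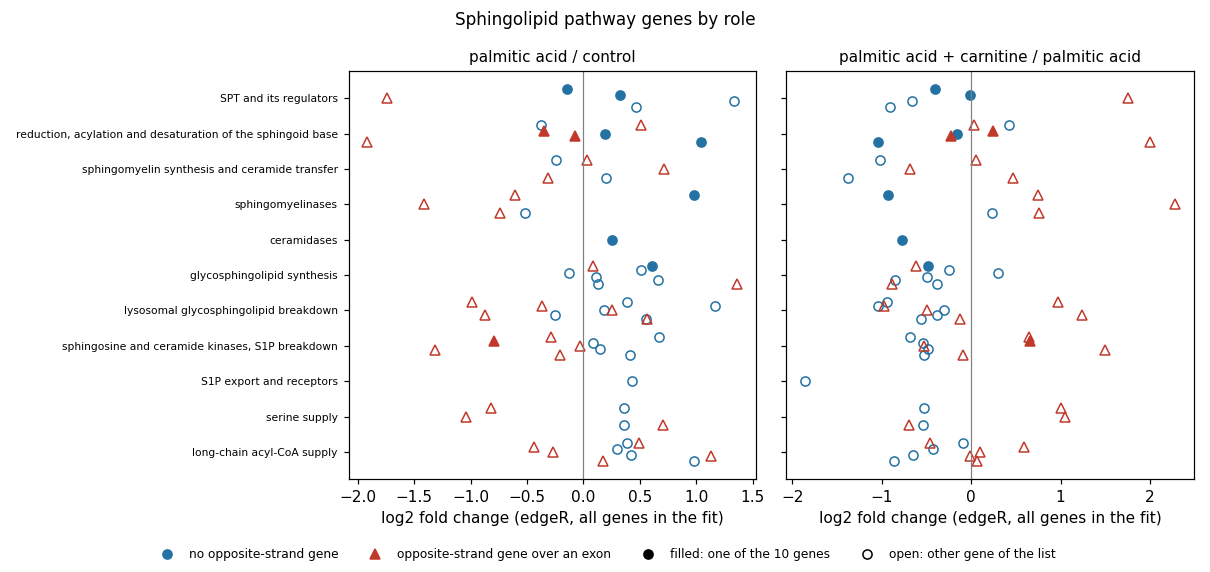
Log2 fold changes of the 65 tested sphingolipid genes, grouped by role, for palmitic acid against control and for palmitic acid with carnitine against palmitic acid, with the 10 enzymes as filled symbols, other genes as open symbols, circles for genes with no opposite-strand gene and triangles for genes with one. Values lie on both sides of 0, with a median of 0.17 in the first contrast and -0.38 in the second.

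Over the 9 libraries, the 2 members whose profiles were most alike were Smpd1 and Ugcg (Pearson r = 0.929 of log2 CPM), ahead of Cers2 with Sphk2 (0.887) and Asah1 with Cers5 (0.791). Among all genes tested, the closest profile to Smpd1 was that of Cpe (0.992), to Ugcg that of Becn1 (0.989), to Degs1 that of Ctsz (0.975) and to Asah1 that of Slc35b2 (0.977). Sphk2 was closest to Prodh (0.991), Cers2 to Adamts5 (0.989), Cers6 to Dglucy (0.981), Sptlc1 to Gpn1 (0.945), Cers5 to Adamtsl2 (0.936) and Sptlc2 to Eef1b2 (0.904). These are descriptions over libraries that share depth and treatment, and the highest of many correlations is high by selection.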

How the data were processed

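The genes and the pathway list were chosen with earlier results of these data known. The deposited table gives raw counts, and FPKM that the authors made, per the file headers. Tools in the submitters' processing notes are HISAT2 2.2.0, HTSeq 0.13.5, Trim Galore 0.6.4, Bowtie2 2.4.2 and edgeR. Those notes list GRCm39 beside GRCh38 and Rnor_6.0. The strand setting of the counting is not given in the sources used here, so reads of overlapping genes may be misassigned. Groups came from the treatment label.

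Counts of all 9 libraries were fitted together in edgeR 4.0.16 (R 4.3.3) with TMM factors, filterByExpr (minimum count 10, total 15), glmQLFit and glmQLFTest, and with group as the single factor. Tests were two-sided, p-values were adjusted by Benjamini-Hochberg over the 12548 genes left, and 0.05 was the threshold. The fit was repeated within 5920 protein-coding genes whose exons met no annotated gene on the opposite strand. Strand relations came from GENCODE M21 (GRCm38), joined by gene ID for 22506 of 22831 genes, with bedtools 2.31.1. Alternatives were RLE factors, no filter, DESeq2 1.42.0, limma 3.58.1 on log2(FPKM + 1) and log2(FPKM + 0.1), a replicate block, the groups of a contrast alone, the log2 sense-to-opposite ratio as covariate, leaving out each library and, added after the data were seen, leaving out both control 3 and palmitic acid 1. The edgeR step was tested on simulated counts. Total counts of 2.31 to 5.14 M per library limit the precision of genes with few counts.

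Genes named beside the 10 came from a rule: any pathway gene past the threshold, else up to 3 non-members per role with the highest mean FPKM, the gene with the closest profile to each member, and any gene opposite a member's exons. Some genes that the rule gives are left out of the text. The result of 1 listed gene is not reported here.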

Additional observations from a re-analysis of the deposited data

How the results depend on the processing

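Across 528 alternative values for the single enzymes, 463 kept their direction and were not called, 60 changed sign and 5 passed the threshold. Values with no adjusted p counted as not called. A kept direction can go with a large change in size, as for Degs1 against control (1.04, and 0.067 with the covariate). For palmitic acid against control, 0 genes were called with edgeR, against 474 with DESeq2, 1118 with no filter on low counts, 1 with limma at a pseudocount of 0.1, 65 within partner-free genes, 2369 without both control 3 and palmitic acid 1, and 0 to 768 without 1 library (768 without control 3). For carnitine added to palmitic acid, 0 became 817 with DESeq2, 1366 with no filter, 1 and 3 with limma at pseudocounts of 1 and 0.1, 66 within partner-free genes, 1685 without both libraries and 0 to 6 without 1. Between the combined group and control, 0 became 5 with no filter and 9 without both libraries. Of the 10 enzymes, 0 became 3 without both libraries (19.2% of all genes) and 0 to 1 without 1 library for palmitic acid (Smpd1 without control 3, 5.99% of all genes), and 1 (Degs1) with no filter for carnitine (5.98%). Within partner-free genes, the 65 calls became 149 without both libraries, 1 with the ratio as covariate and 0 to 192 without 1 library (0 without control 1, 3 without control 2, 192 without control 3, 23 without palmitic acid 1, 29 without palmitic acid 2). The 66 calls became 0 with the covariate and 1 to 112 without 1 library (112 without control 3, 25 without palmitic acid 1, 1 without the combined replicate 2 or 3, 41 without control 1). Between the combined group and control, 0 became 7 without both libraries and 2 with the covariate. The cause was not tested.

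Signs turned mostly for genes with small differences, but with the covariate also for Degs1 and Sphk2. In log2 fold change for palmitic acid against control, limma at pseudocounts of 1 and 0.1 gave 0.20 and 0.33 for Sptlc1, 0.0086 and 0.0090 for Cers2 and 0.32 and 0.40 for Cers5. For carnitine it gave -0.14 and -0.15 for Cers2. Within partner-free genes, Cers6 had -0.094 and Asah1 -0.00272 for palmitic acid, and Sptlc2 0.33 and Cers6 0.20 for carnitine. With the covariate, palmitic acid gave 0.32 for Sptlc1, -0.42 for Sptlc2, -0.26 for Cers6 and -0.18 for Asah1. Carnitine gave 0.79 for Sptlc2, 0.12 for Degs1, 0.66 for Cers5, 0.37 for Cers6 and -0.015 for Sphk2. With the covariate within partner-free genes, palmitic acid gave 0.21 for Sptlc1, -0.51 for Sptlc2 and -0.00208 for Degs1, and carnitine 0.22 for Degs1. Without both libraries, palmitic acid gave -0.24 for Sptlc2 and 0.19 for Cers5, carnitine 0.47 for Sptlc2, 0.055 for Cers5 and 0.12 for Cers6, and within partner-free genes palmitic acid gave -0.58 for Sptlc2 and 0.26 for Asah1. Sptlc2 for carnitine was 0.025 with RLE factors and 0.026 with DESeq2.

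Without 1 library, palmitic acid values ran from -0.50 to 0.41 for Sptlc1, -0.17 to 0.58 for Sptlc2, -0.35 to 0.47 for Cers5 and -0.12 to 0.51 for Cers6. Carnitine values ran from -0.28 to 0.47 for Sptlc2, -0.46 to 0.055 for Cers5 and -0.44 to 0.12 for Cers6. Within partner-free genes, palmitic acid values ran from -0.91 to 0.17 for Sptlc1, -0.40 to 0.23 for Sptlc2, -0.37 to 0.28 for Cers6 and -0.12 to 0.28 for Asah1, and carnitine values from -0.47 to 0.16 for Sptlc1 and -0.12 to 0.48 for Cers6.

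The replicate block called 0 genes in each of the 3 contrasts and gave 0.043 for Sptlc2 with carnitine. Replicate numbers share no stated source, and deviations of same-numbered libraries correlated between -0.394 and 0.262 over 9 pairs (4 above 0.1). Genes with few counts, such as Sptlc1, have low precision.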
